A study of Drosophila melanogaster with 2 samples.

Results

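Binding of Krüppel (Kr) was examined at 33 listed genes of the Notch, EGFR, JAK-STAT, FGF and PDGF/VEGF-receptor-related (PVR) signalling pathways, out of 13945 protein-coding genes on the chromosome arms. They comprise 10 Notch genes, 9 EGFR genes, 7 JAK-STAT genes, 4 PVR genes and 3 FGF genes, all of them listed by symbol. Kr was mapped by ChIP-seq in mixed-sex whole Drosophila melanogaster embryos aged 0 to 10 h, in 1 group of 2 biological replicates, which the labels number 2 and 3. Both replicates came from 1 transgenic line that stably expresses Kr fused to GFP at its C terminus, and an antibody to GFP pulled down the fusion protein from sonicated chromatin. The labels speak of an insertion aimed at Kr and do not say whether an untagged copy remains. Whole embryos mix many cell types and ages, so binding in fewer cells and weaker binding per cell cannot be told apart. A gene was called occupied when at least 1 summit of the authors' list of reproducible peaks (thresholded by irreproducible discovery rate, IDR) lay in its body or within 5 kb of it. The files hold peaks and no read counts, so the depth of each library is unknown.

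Kr is a zinc-finger transcription factor of the gap class, which acts mainly as a repressor while the segmented body plan is laid down. The 5 pathways carry signals between neighbouring cells of the same embryo. In Notch signalling a membrane-bound ligand releases the receptor's intracellular part, which joins the DNA-binding protein Su(H) in the nucleus. EGFR, the FGF receptors and Pvr are receptor tyrosine kinases, which act largely through Ras and MAP kinase on ETS-family factors such as pnt and aop. In the JAK-STAT pathway a secreted cytokine activates the kinase hop, which phosphorylates Stat92E.

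IDR summits were found at 20 of the 33 signalling genes (60.6%), against 18.0% of all protein-coding genes. The 33 genes are long, with a median of 16989 bp and a range of 2166 to 89273 bp, and long genes are occupied more often. Other genes of the same decile of gene length would give 10.1 occupied genes of 33 (30.6%). Of the 19 members in the longest decile (14627 bp and over) 15 were occupied, against 36.8% of the other genes there. Of the 10 members in the decile below, 5 were occupied, against 25.0% of the others. The 4 shorter members, Su(H), spdo, upd1 and upd2, were not occupied. No test was made of these counts, because the genes were listed with results of the same libraries known.

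By pathway, occupied members numbered 7 of 10 for Notch, 7 of 9 for EGFR, 3 of 7 for JAK-STAT, 2 of 4 for PVR and 1 of 3 for FGF. Genes of the same length deciles would give 3.13, 3.08, 1.69, 1.35 and 0.868 in that order. The Notch and EGFR genes therefore stood at more than the length-based count, while for PVR and FGF the count and the length-based value lay within 1 gene of each other. By role, 7 of 12 ligands, 1 of 5 receptors, 3 of 5 nuclear or kinase effectors, 4 of 5 inhibitors and 5 of 6 modulators (proteins for cleavage, trafficking, ubiquitylation or glycosylation) were occupied. The length-based values were 3.53, 1.60, 1.51, 1.49 and 1.98. Receptors were the role whose count did not exceed its length-based value.

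**Figure D1:**
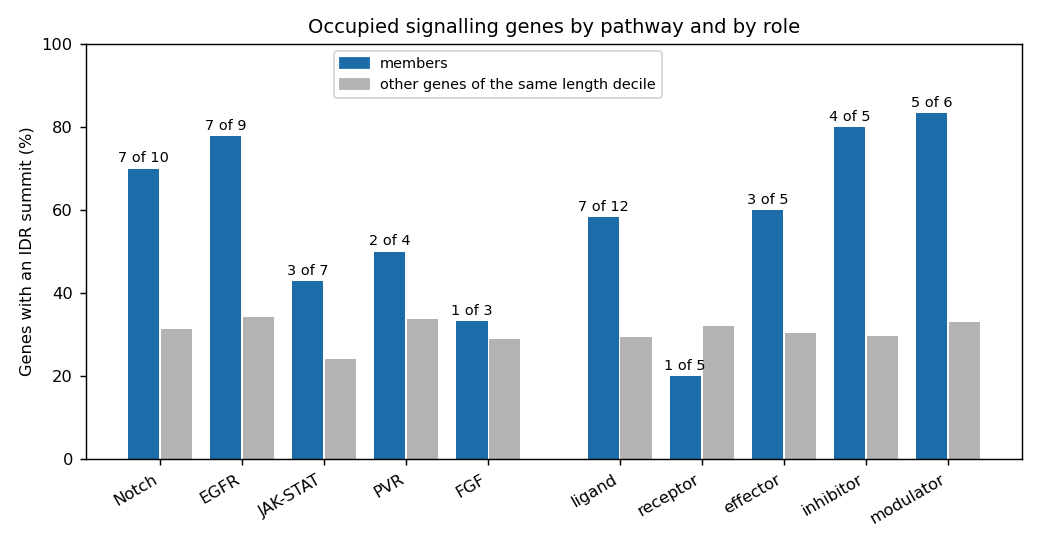
Percent of genes with at least 1 IDR summit in the body or within 5 kb, by pathway (left) and by role (right). Blue bars are the signalling genes, with their counts above, and grey bars are other protein-coding genes of the same length deciles. Receptors (1 of 5, against 1.60 by gene length) are the role with the blue bar below the grey one.

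The occupied members held 51 distinct IDR summits, and no summit was shared between 2 members. Overlapping peaks merged into 49 regions, and other genes of the same length deciles would give 20.2 summits. The Notch genes held 20 of these summits and the EGFR genes another 20, followed by 6 at JAK-STAT, 4 at PVR and 1 at FGF genes. At 8 of the 33 members 3 or more summits were counted (neur, N, aop, aos, pnt, fng, S and Pvf3). Among protein-coding genes of any length 2.08% reached that number, and no share for genes of matched length was computed. At fng 2 of the 3 summits stood 203 bp apart in overlapping peaks, so that gene held 2 regions. The median member summit ranked 977 in the IDR list, and the highest ranked 45.

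The DNA of 6 summit windows is shown to set sequence beside the measured signal: the best-ranked window that holds the Kr core word at each of N, Ser, vn, aos and neur, and the best-ranked member summit of all, at vn, which lacks it. Each runs 100 bp to either side of the summit, on the plus strand of dm6, with sequence from RefSeq (Release 6 plus ISO1). Capitals mark the Kr word AAGGGTT or its reverse complement AACCCTT.
N, intron, chrX:3142124-3142324: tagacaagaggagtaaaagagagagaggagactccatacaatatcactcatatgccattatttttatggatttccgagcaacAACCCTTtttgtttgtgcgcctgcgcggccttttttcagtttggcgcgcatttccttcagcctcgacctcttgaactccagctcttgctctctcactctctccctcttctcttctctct
Ser, upstream, chr3R:27197147-27197347: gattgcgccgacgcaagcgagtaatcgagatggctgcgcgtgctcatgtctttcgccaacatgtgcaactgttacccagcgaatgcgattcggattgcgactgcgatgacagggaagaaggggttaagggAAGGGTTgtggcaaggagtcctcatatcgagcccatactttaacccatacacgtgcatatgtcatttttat
vn, intron near the 5′ end, chr3L:5840542-5840742: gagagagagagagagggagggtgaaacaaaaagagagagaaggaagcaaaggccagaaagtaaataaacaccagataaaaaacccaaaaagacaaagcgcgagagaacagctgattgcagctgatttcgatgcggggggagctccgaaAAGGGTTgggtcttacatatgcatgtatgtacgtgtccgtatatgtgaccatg
aos, intron, chr3L:16473687-16473887: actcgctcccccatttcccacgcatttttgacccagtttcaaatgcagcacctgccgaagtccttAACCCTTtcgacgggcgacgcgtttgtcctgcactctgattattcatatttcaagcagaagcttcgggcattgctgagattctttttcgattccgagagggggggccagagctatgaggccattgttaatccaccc
neur, intron, chr3R:9035513-9035713: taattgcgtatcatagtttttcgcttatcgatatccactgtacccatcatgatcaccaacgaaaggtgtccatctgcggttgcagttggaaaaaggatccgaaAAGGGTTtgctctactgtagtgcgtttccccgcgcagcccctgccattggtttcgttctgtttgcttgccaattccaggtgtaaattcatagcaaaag
vn, highest member summit, intron, no Kr word, chr3L:5824166-5824366: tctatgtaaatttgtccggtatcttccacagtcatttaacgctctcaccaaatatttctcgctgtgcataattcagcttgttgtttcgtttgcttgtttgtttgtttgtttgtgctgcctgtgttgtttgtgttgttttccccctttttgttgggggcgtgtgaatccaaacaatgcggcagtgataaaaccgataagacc

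Each of the 5 windows with the word held 1 copy. At neur its centre lay 6 bp from the summit, at N and aos 15 and 32 bp to the left on the plus strand (-15 and -32), and at Ser and vn 33 and 51 bp to the right. Across all member summits, 5 of 51 had the word within 100 bp (9.80%, Wilson 95% interval 4.26 to 21.0), and across the whole IDR list 12.5% did. The list's share lay inside the members' interval. Among windows of the same length at the start sites of all protein-coding genes, 1.71% held it. The word CAGGTAG, bound by the zygotic activator Zelda, stood at 3 member summits (5.88%, against 3.28% of the list). The short GAGAG word of the GAGA factor stood at 20 (39.2%, against 33.5%). A match is a description of the letters in the window and not evidence of a site.

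In the following, signal is the value that the authors deposited for each peak, of unknown scale. The IDR list carries the signal of the pooled reads, and each replicate has its own list of 30000 permissive peaks with its own signal. Replicate values are those of the nearest summit within 250 bp, and a low rank is a high peak.

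**Figure D2:**
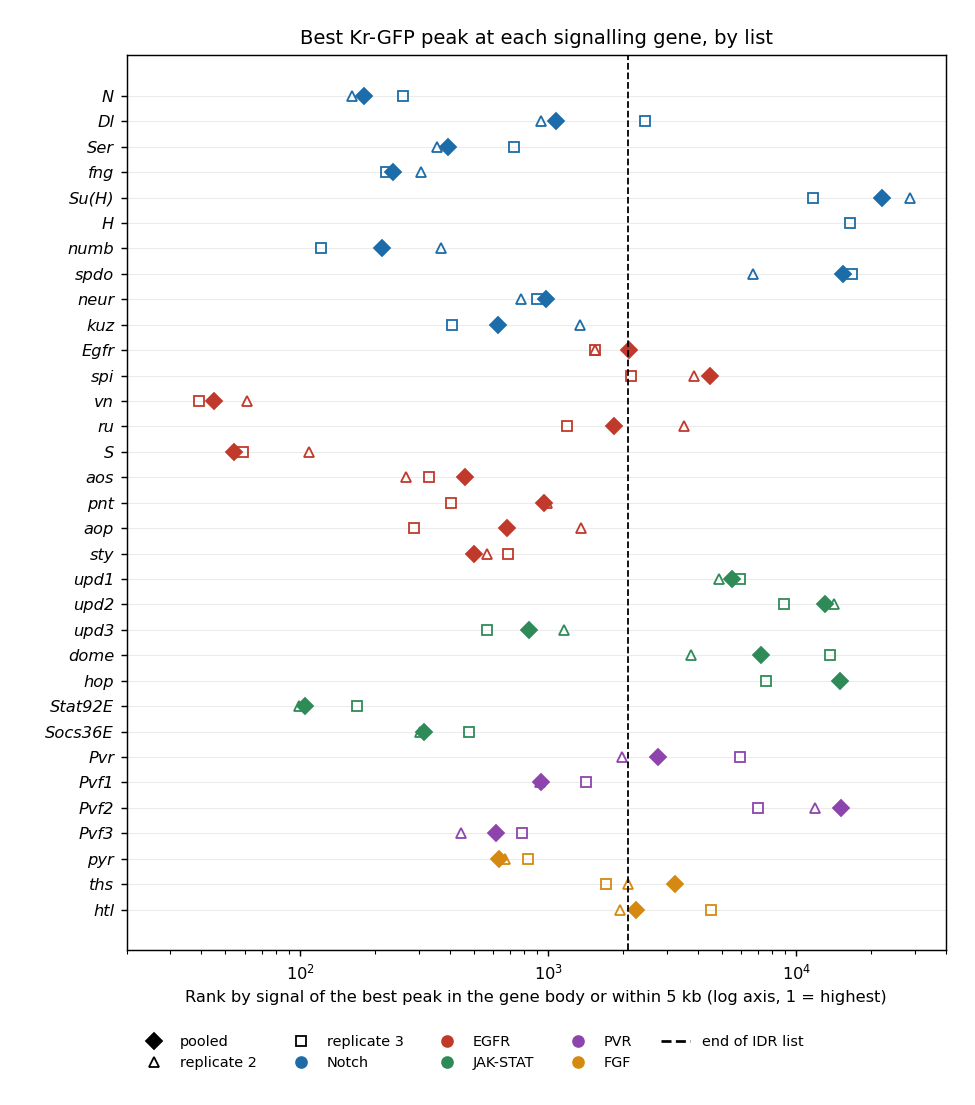
Rank by signal of the best peak in the gene body or within 5 kb (log axis, 1 is highest) for each signalling gene, coloured by pathway, in the pooled list (filled diamonds), replicate 2 (open triangles) and replicate 3 (open squares). The dashed line marks the end of the IDR list; the best pooled rank is 45 at vn, Egfr lies just beyond the line at 2122, and H has a peak in replicate 3 only.

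Among the Notch genes, the receptor gene N (X, 3134870 to 3172221) carried 5 IDR summits along 27.6 kb. The highest (X, 3142167 to 3142282) lay in an intron 7354 bp into the gene, ranked 180 in the IDR list and is the N window printed above. Its signal was 157 in replicate 2 and 96.8 in replicate 3, a mean of 127 ± 42.3 (SD, n = 2). Replicate 2 was the higher, while both placed the peak near the top, at ranks 162 and 259. The summit closest to the transcription start site (TSS) of N, 228 bp from it, ranked 1765 and was uneven, with 82.3 in replicate 2 and 28.3 in replicate 3. The summits ranked 673 and 1626 stood 203 bp apart in overlapping peaks, so they count as 1 region. Both matched the same peak in each replicate (67.4 in replicate 2 and 89.4 in replicate 3).

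Of the ligand genes of N, Ser (3R, 27172090 to 27194267) had 1 IDR summit, 2980 bp upstream of its TSS in intergenic DNA, at rank 395. Its signals were 120 in replicate 2 and 67.2 in replicate 3, a mean of 93.9 ± 37.6 (SD, n = 2). The other ligand gene, Dl (Delta in the annotation; 3R, 19302731 to 19326217), had 1 summit in an intron 4225 bp from the TSS. It ranked 1077, with 88.3 in replicate 2 and 42.2 in replicate 3, at ranks 931 and 2464. The replicates differed at both ligands, and in the highest peaks of replicate 3 alone, taken to the number of the IDR list, Dl had 0 summits.

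Among the Notch modulators fng, neur and kuz were occupied and spdo was not, and of the inhibitors numb was occupied and H was not. fng encodes a glycosyltransferase that tunes the response of N to Delta and Serrate. Its best summit (3L, 20922300 to 20922739) lay in intergenic DNA downstream of the gene, 5306 bp from the TSS of CG10589, and ranked 237 with 127 in replicate 2 and 103 in replicate 3, a mean of 115.1 ± 17.4 (SD, n = 2). An fng summit inside the gene, in an intron 5108 bp from the TSS, ranked 733 with 99.5 and 62.5. numb, a membrane-associated inhibitor of N that is inherited by 1 daughter of an asymmetric division, had its best summit at an internal promoter (2L, 9449441 to 9449880), 169 bp from a TSS. That peak ranked 213, with 119 in replicate 2 and 127 in replicate 3, a mean of 123 ± 6.11 (SD, n = 2). The best peaks of numb, kuz, ru, pnt and aop were higher in replicate 3, and those of the other 15 occupied members in replicate 2.

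neur, which encodes a ubiquitin ligase that promotes endocytosis of the ligands, had 6 IDR summits within 10.6 kb, the most of any member. They ranked 977, 1084, 1346, 1689, 1810 and 2064, so the gene was covered by many moderate peaks and no high one. The best (3R, 9024799 to 9025238) had 93.7 and 54.0 in replicates 2 and 3 and was closer to the TSS of tgo (4997 bp) than to that of neur (8712 bp). The summit at the neur TSS itself, 28 bp away, was nearly equal in the replicates, at 63.7 and 62.0. The lowest, at rank 2064, is the neur window printed above and was the lowest-ranked IDR summit at any member (46.1 and 56.3). The count depended on the replicate: 6 summits stood in the highest peaks of replicate 3, and 2 in those of replicate 2.

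kuz encodes the metalloprotease that cleaves N after ligand binding, and it is the longest member at 89273 bp. Its best summit (2L, 13591262 to 13591701) lay in an intron 41343 bp from the kuz TSS and 5704 bp from that of CG9254, which overlaps it. It ranked 630, with 69.5 in replicate 2 and 82.6 in replicate 3, a mean of 76.1 ± 9.25 (SD, n = 2). The other kuz summit, at rank 763, stood 119 bp from the TSS of the neighbouring gene B4 and 930 bp from that of kuz. Neither summit had kuz as the gene of the nearest TSS. Su(H), the DNA-binding effector of the pathway, H, the adaptor of its co-repressors, and spdo, a membrane protein required for N activity in asymmetric divisions, had no IDR summit. Their best pooled peaks ranked 22049 for Su(H) (q of 0.626) and 15415 for spdo (q of 0.442) of 30000, and H had none.

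The 2 highest peaks of all members lay at EGFR pathway genes, vn and S. vn encodes a secreted neuregulin-like ligand, and its best summit (3L, 5824156 to 5824347) stood at rank 45, with a pooled signal of 385. In the replicates it had 202 and 184 (mean 193 ± 13.1, SD, n = 2), at ranks 61 and 39. The replicates were close here, and it was the highest member peak in both. The summit lay in an intron 21398 bp from the vn TSS and 11173 bp from that of mad2, and no Kr word stood in its window printed above. The second vn summit, with the word, ranked 979 and was uneven, at 87.7 in replicate 2 and 43.0 in replicate 3.

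S (Star) encodes a membrane protein that carries the ligand spi out of the endoplasmic reticulum. Its best summit (2L, 1072289 to 1072494) lay in an intron 5448 bp from the TSS. It ranked 54 with signals of 173 in replicate 2 and 159 in replicate 3, a mean of 166 ± 9.69 (SD, n = 2). A second intronic summit of S ranked 458 with 103 and 76.6, and a weaker one ranked 1674 with 67.7 and 39.8. Both replicates gave these summits the same order. ru, a rhomboid-family protease of the ligands, had 1 low summit at rank 1844, 2338 bp upstream of its TSS in an intron of Ptp61F. It had 37.2 in replicate 2, where it ranked 7873, and 55.6 in replicate 3, where it ranked 1188. With the highest peaks of replicate 2 alone ru had 0 summits.

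aos encodes a secreted inhibitor that binds spi. It carried 4 IDR summits along 10.2 kb, where CG33158 overlaps it. The best (3L, 16483728 to 16484167) was at the promoter, 298 bp upstream of the TSS. Its rank was 461, with 94.2 in replicate 2 and 88.6 in replicate 3, a mean of 91.4 ± 3.93 (SD, n = 2). An intronic summit of aos at rank 510 had 134 in replicate 2 and 56.8 in replicate 3, the widest spread of the 4 (SD 54.7, n = 2). The one at rank 1041 is the aos window with the word printed above, and it was higher in replicate 3 (59.9 and 76.7). sty encodes an intracellular inhibitor of receptor tyrosine kinase signalling. Its only IDR summit (3L, 3395982 to 3396421) lay downstream of the gene in intergenic DNA and ranked 501, with 104 and 68.4. The distance to the nearest sty TSS was 21759 bp, and that to Ids was 17934 bp.

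pnt and aop encode the ETS-domain activator and repressor at the end of the pathway, and both carried several moderate summits. pnt had 4, of which the best (3R, 23345154 to 23345593) ranked 959 in an intron 793 bp from the TSS. It had 43.5 in replicate 2 and 83.1 in replicate 3, a mean of 63.3 ± 28.0 (SD, n = 2), at ranks 5735 and 404. A pnt summit 220 bp from an internal TSS went the other way, with 84.1 in replicate 2 and 31.2 in replicate 3. The replicates thus differed over which pnt peak was high.

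aop had 5 IDR summits along 18.5 kb, the best of them (2L, 2181979 to 2182418) in intergenic DNA 3445 bp upstream. It ranked 682, with 66.4 in replicate 2 and 92.4 in replicate 3, a mean of 79.4 ± 18.4 (SD, n = 2). The other 4 lay in introns at ranks 1281, 1302, 1319 and 1932. The one at rank 1319 was the single member summit with no replicate 2 peak within 250 bp, and it had 82.3 in replicate 3. In the highest peaks of replicate 3 aop had 10 summits, and in those of replicate 2 it had 4.

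Egfr and spi had no IDR summit. Egfr, the receptor gene, came closest of all unoccupied members, with a best pooled peak at rank 2122, just beyond the end of the list, where q was 0.00354. That peak lay in an intron 6793 bp from the TSS and had 56.5 in replicate 2 and 50.3 in replicate 3. Egfr was occupied in the highest peaks of either replicate taken alone, with 1 summit in each, but not the same one. In replicate 3 it was the match of the pooled peak, at rank 1544. In replicate 2 that match ranked 3091, and the called summit was another, with 74.2 at rank 1541. The best pooled peak at spi, the main TGF-alpha-like ligand gene of the embryo, ranked 4479 (q of 0.0278). Just inside the list stood the neur summit of rank 2064 and the ru summit of rank 1844, so Egfr and these differ by little in pooled signal (103, 104 and 108).

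**Figure D3:**
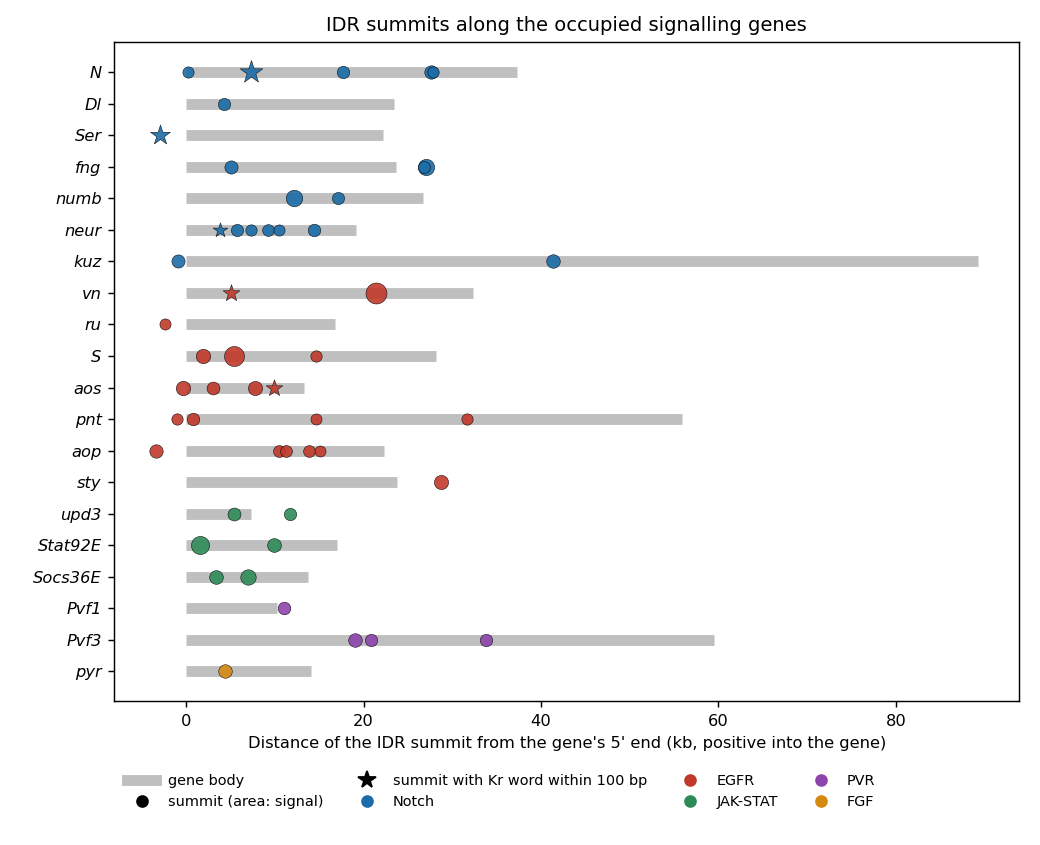
Position of every IDR summit at the 20 occupied genes, as distance from the gene's 5′ end in kb (grey bars are gene bodies, negative is upstream). Circle area follows the signal, stars (drawn on a larger scale) mark summits with the Kr word within 100 bp, and colours mark pathways; most summits sit inside the grey bars, with vn and S carrying the largest circles.

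Within the JAK-STAT pathway, the transcription factor gene Stat92E had the highest peak (3R, 20550638 to 20550821), at a promoter 388 bp from a TSS. The pooled signal there was 288, for rank 105, and the replicate signals were 177 in replicate 2 and 113 in replicate 3, a mean of 145 ± 44.9 (SD, n = 2). A further summit lay in a Stat92E intron and ranked 574, with 103 and 64.8. Replicate 2 was higher at both, and both peaks were among the highest in each replicate.

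Socs36E, a feedback inhibitor of the pathway, had 2 intronic summits at ranks 315 and 593. The first (2L, 18145273 to 18145712) had 128 in replicate 2 and 78.8 in replicate 3, a mean of 104 ± 35.1 (SD, n = 2), and the second had 85.3 and 74.3. Of the 3 cytokine genes, which lie in a row on X, only upd3 was occupied. Its intronic summit (X, 18282361 to 18282800) ranked 833 with 79.3 and 73.9, and a second, downstream and 11684 bp from the upd3 TSS, ranked 1055 with 82.1 and 50.2. The downstream summit lay in the 20757 bp between upd3 and upd1, and no IDR summit lay in the 33948 bp between upd2 and upd3. The best pooled peaks at upd1 and upd2 ranked 5490 and 13007 (q of 0.0555 and 0.355). Those at dome, the cytokine receptor gene, and hop, the Janus kinase gene, ranked 7216 and 14936 (q of 0.125 and 0.425). All 6 JAK-STAT summits were among the highest peaks of both replicates, taken to the number of the IDR list.

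The PVR pathway guides blood cells and some epithelia in the fly embryo through the receptor Pvr and its ligands Pvf1, Pvf2 and Pvf3. Pvf3 (2L, 7098188 to 7157695) had 3 intronic IDR summits within 14.8 kb. The best (2L, 7138477 to 7138916) ranked 617, with 111 in replicate 2 and 48.8 in replicate 3, a mean of 80.1 ± 44.3 (SD, n = 2). The one at rank 1045 was also uneven, at 108 and 31.3, while that at rank 1034 was nearly even, at 60.5 and 65.6. Pvf1 had 1 summit at rank 937 with 88.4 and 51.9, but it stood 66 bp from the TSS of htk and lay 11047 bp from that of Pvf1. Pvf2, whose body lies 13552 bp from that of Pvf3 with no IDR summit between, had its best pooled peak at rank 15090 (q of 0.431). At Pvr the best pooled peak ranked 2780 (q of 0.00666), with 67.4 in replicate 2 and 27.8 in replicate 3.

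The FGF genes examined were pyr and ths, which encode the FGF8-like ligands that guide spreading of the mesoderm, and htl, which encodes their receptor. pyr (2R, 11712263 to 11726345) had 1 IDR summit in an intron 4417 bp from its TSS, at rank 633. Its signals were 97.9 in replicate 2 and 64.3 in replicate 3, a mean of 81.1 ± 23.8 (SD, n = 2). The neighbouring ths began 30471 bp from pyr, with no IDR summit between them, and its best pooled peak ranked 3231 (q of 0.00944) with 47.2 and 48.5. At htl the best pooled peak lay 374 bp from the TSS and ranked 2263 (q of 0.00376), with 68.1 in replicate 2 and 23.1 in replicate 3. Which FGF genes were called therefore depended on the list. In the highest peaks of replicate 3 alone ths was occupied as well (2 of 3 genes, against 0.905 by gene length). In those of replicate 2 alone ths and htl both were (3 of 3 genes, against 0.826). There the ths summit was not the match of its best pooled peak, but another with 65.8 at rank 2094.

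Introns were the main location of the member summits. They held 36 of 51 (70.6%, Wilson 95% interval 57.0 to 81.3), against 41.2% of the whole IDR list. Promoters, within 500 bp of a TSS, held 8 (15.7%, against 28.9%), and intergenic DNA held 7 (13.7%, against 28.1%). Coding exons and UTRs outside promoters held 0 of 51, for which the Wilson 95% upper limit is 7.0% for each, and the limit taken as 3 counts of the total is 5.88%. These classes were rare in the whole list too, with 0.428% in coding exons, 0.904% in 5′ UTRs and 0.571% in 3′ UTRs. All 3 shares lie below that limit. Introns make up more of a long gene, and no background of intron length was computed. Member summits were also counted only in a gene body or within 5 kb of it, and 40 of the 51 lay in the body. The whole list has no such limit, so its shares are not a like-for-like background for these. Seen from the member's own TSS, 6 summits were within 500 bp, 20 lay between that and 5 kb and 25 lay farther, with a median of 4810 bp. For 40 of the 51 the nearest TSS was the member's own. Exceptions were the best peaks of fng, neur, kuz, vn, sty and Pvf1 and lesser peaks of N, fng, kuz and Stat92E, where the nearest TSS belonged to a neighbour or a nested gene.

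The replicates were compared over the 50 member summits matched in both. The N summits ranked 673 and 1626 share a match, so its values enter for both. Replicate 2 was higher at 38 of the 50, with median signals of 84.7 in replicate 2 and 62.7 in replicate 3 and a median ratio of 1.38. Over all matched IDR summits the median ratio was 1.46, so the offset was general to the lists. The SD of the log2 ratio was 0.60 at member summits and 0.64 over the list. Spearman's rho of signal between the replicates was 0.23 across the member summits and 0.35 across the list, given as a description, since summits share libraries and were selected on pooled signal. Among the highest peaks of both replicates, each taken to the number of the IDR list, stood 31 of 51 member summits (60.8%, Wilson 95% interval 47.1 to 73.0), against 53.9% of all.

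**Figure D4:**
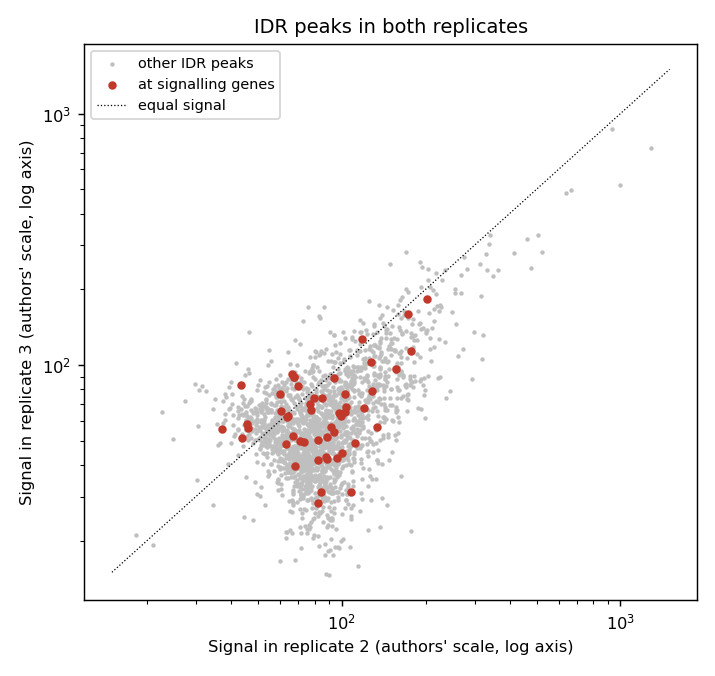
Signal in replicate 2 (x axis) and replicate 3 (y axis), both log axes in the authors' units of unknown scale, at IDR summits matched in both replicates. Red points are the 50 member summits, grey points the other IDR summits, and the dotted line marks equal signal; 38 of the 50 lie below it, and the red point farthest to the upper right is vn at 202 and 184.

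In every list and gene window tried, 14 members stayed occupied: N, fng, numb, neur, vn, S, aos, pnt, aop, upd3, Stat92E, Socs36E, Pvf3 and pyr. In none of them, 7 were occupied: Su(H), spdo, spi, upd1, upd2, hop and Pvf2. By IDR list and by each replicate's own highest peaks, 18 of the 20 occupied members were called, the exceptions being Dl and ru. The whole pooled permissive list, named by the authors as peaks and background, includes the IDR peaks. It held 519 summits in or within 5 kb of the members, against 290 for other genes of the same length deciles. The replicates' own lists held 575 against 292 for replicate 2 and 488 against 287 for replicate 3. Low in the pooled list q is high, at 0.355 for rank 13007 (upd2) and 0.626 for rank 22049 (Su(H)). The pooled count is therefore not a count of bound sites.

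Another 44 genes of the same pathways were counted for comparison, and 17 (38.6%) were occupied, against 10.6 by gene length. They are shorter, with a median of 6009 bp. In the EGFR pathway 7 of 18 were occupied, against 4.63 by gene length. Among them were cic, a repressor relieved by MAP kinase (rank 162, 170 and 84.0 in replicates 2 and 3), and the kinase gene Raf with 7 summits (best rank 519, 88.8 and 79.6). The scaffold gene cnk had a best rank of 172, in an intron of l(2)k01209, and Gap1 (RasGAP1 in the annotation) one of 496. At Gap1 the replicates were far apart, at 46.6 and 135. The protease gene rho had no IDR summit, and its best pooled peak ranked 2613.

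Of 12 other Notch genes 4 were occupied, against 2.41 by gene length. They were O-fut1 (rank 469, at the promoter of CG13016), mam, a co-activator (rank 758), Kul (rank 1139, at the promoter of CG7601) and mib1 (rank 1722). Of 6 other JAK-STAT genes 3 were occupied, against 1.37 by gene length. For each the nearest TSS of the best summit belonged to another gene: Ptp61F (rank 371), the receptor-like et (rank 453, in an intron of Zw) and Socs16D (rank 791). In the PVR group mbc was occupied, 1 of 3 against 0.669 by gene length, at rank 309. In the FGF group 2 of 5 were occupied, against 1.56 by gene length. They were stumps, an adaptor downstream of the FGF receptors, at rank 151 in a promoter (137 and 122 in replicates 2 and 3), and the ligand gene bnl at rank 974, 36 bp from its TSS. The PVR and FGF counts lay within 1 gene of their length-based values. The receptor gene btl had no IDR summit, and its best pooled peak ranked 9003. btl, which was named whatever its value, thus joined htl, Egfr, Pvr and dome as receptor genes with no IDR summit, while N had 5. For the 5 listed receptors the count of 1 occupied compares with 1.60 by gene length. btl, dome and htl fall in a length decile where 25.0% of other genes were occupied. Of the unoccupied receptor genes, Egfr, Pvr and htl were occupied in the highest peaks of replicate 2 alone.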

How the data were processed

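Peaks of Kr-GFP ChIP-seq were taken from 1 group of 2 biological replicates. Per the labels, lists exist for dm6 and dm3, and the dm6 lists were used. The aligner, peak caller and IDR threshold were not given in the sources used here. Permissive peaks were called per replicate and on pooled reads, against a control not analysed here, according to the deposited text lists. Signal is the deposited signal value of each peak, of unknown scale, and the authors' lists also give the −log10 of a q-value, which was turned back into q. The IDR list held 2102 peaks, all of them the top pooled peaks by signal (103 or more), and each permissive list 30000. Depth is unknown, and intervals (Wilson, 95%) cover counting error only. The replicates are called biological in the labels, and their SD (n = 2) also carries the offset between the 2 lists.

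Genes came from Ensembl release 115 of BDGP6 (13945 protein-coding genes on the arms) and sequence from RefSeq. Of the listed names 3 were translated (Dl to Delta, nct to Nct, Gap1 to RasGAP1), and all 77 were found. A summit counted for every gene whose body or 5 kb flank held it. The length-based value sums, over members, the share occupied (or mean summits) among the other genes of the same decile of gene length. Features were assigned in the order promoter (500 bp), 5′ UTR, coding exon, 3′ UTR, intron, intergenic. Words were sought within 100 bp on both strands. The replicate match was 250 bp. Analyses used Python 3.11.15, numpy 2.4.6, scipy 1.17.1 and matplotlib 3.10.9, and the counting code was tested on simulated data.

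The members and lists were chosen with earlier results of these data known, so no test was made. All members are named, with up to 4 occupied other genes per pathway by rank, plus rho, bnl and btl. Alternatives were other gene windows, nearest TSS only, the upper 1051 IDR peaks, each replicate's own 2102 highest peaks, IDR peaks high in both replicates, length within 20%, other match distances and other word windows and words. Leaving out peaks within 20 kb of Kr, merging regions and the Zelda and GAGA words were added after seeing the data.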

Additional observations from a re-analysis of the deposited data

How the results depend on the processing

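Of the counts of occupied members, the total of 20 stayed between 16 (gene body only) and 23 (window of 10 kb, and without replicate 3). The length-based values in those settings were 6.43, 12.5 and 9.72, against 10.1 in the main setting. PVR members fell from 2 to 1 with the gene body only and to 1 with the nearest TSS only, where the length-based values were 0.936 and 0.963. They rose to 3 with the window of 10 kb and without replicate 3, against 1.61 and 1.31. FGF members rose from 1 to 2 without replicate 2 and to 3 without replicate 3, against length-based values of 0.905 and 0.826. The 51 summits at members became 31 among the IDR peaks above the list's median signal and 31 when a summit had to be high in both replicates. The cause was not tested. The share of member summits with the Kr word was 9.80%, and ran from 7.84% within 50 bp to 19.6% for the word without its last letter, against 9.18% and 19.4% of the whole list. No other pathway count or total of occupied members, and no other total of member summits, moved by more than 1.5 times. The counts by role were not followed in this way, and that of the receptors was not stable. Without replicate 3, Egfr, Pvr and htl were occupied beside N. With 1 group, no paired analysis was possible because no groups share the replicate numbers. The list is cut at a fixed pooled signal of unknown scale, and depth is unknown, so genes just below its end, such as Egfr and htl, are not shown to be unbound.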
